A study of Homo sapiens with 5 samples.

Results

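The small nucleolar RNAs (snoRNAs) and small Cajal body RNAs (scaRNAs) were examined on the arrays of a study that asked which genes respond to DDB2, a damaged-DNA binding protein that also regulates transcription, in ovarian cancer cells. Every transcript cluster of the array whose gene symbols all begin with SNORD, SNORA or SCARNA was taken as a member, which gave 309 of 67528 transcript clusters. Of these, 212 were SNORD, 74 were SNORA, 22 were SCARNA and 1 carried symbols of both snoRNA classes. The 309 members named 295 different RNAs, and all 295 symbols were found in RefSeq.

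The cells were clones of A2780-CP70 (CP70), an ovarian cancer line of human origin that resists cisplatin. In 3 clones a plasmid expressing His-tagged DDB2 had been stably introduced (pcDNA3.1-His-DDB2), and 2 clones carried the empty vector; all 5 were grown in RPMI medium with fetal bovine serum. Total RNA of each clone was hybridised to a single Human Transcriptome Array 2.0, so that the spread between samples is a spread between clones, and a clone's own traits and the effect of DDB2 are hard to separate. Since RNA was taken from whole cultures, fewer cells with a transcript and less of it per cell cannot be told apart. The labels do not say which of the arrays DDB2 1, 2 and 3 is clone 1B, 3H or 4H, and the title and the source name disagree on the number of the second vector clone (3 or 2), which is named vector 3 here after its title. The DDB2 probe set read 9.87, 9.0 and 9.14 on the log2 scale in the DDB2 clones, against 7.84 and 7.25 in the vector clones, so every DDB2 clone was higher. The medians of the arrays lay between 4.47 and 4.48 in the DDB2 clones and at 4.51 and 4.46 in the vector clones. Of 8 epithelial and ovarian markers, 6 passed the filter on low values, as did 1 of 6 markers of other cells (COL1A1), while CDH1 and WT1 did not. EPCAM, an epithelial surface protein, had 5.53, 5.44 and 5.29 in the DDB2 clones, against 7.26 and 5.86 in the vector clones, and was lower past the thresholds of the study (log2 fold change -1.14). DDB2 1 stood apart in the fibroblast markers DCN (6.02, 2.50 and 2.57 in the DDB2 clones, against 4.01 and 2.91 in the vector clones) and LUM (4.73, 2.39 and 2.45, against 3.59 and 2.90), where it was highest, and in the keratin KRT18 (6.75, 8.27 and 8.29, against 8.14 and 8.67), where it was lowest. DCN and LUM exceeded the level of the filter on only 1 array each. In the fibroblast marker COL1A1, DDB2 1 did not stand apart (5.80, 5.63 and 5.61, against 5.76 and 5.85). The leukocyte marker PTPRC lay between 2.32 and 2.41 on all arrays. The part of these marker differences in the results was not tested.

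Box C/D snoRNAs (SNORD) guide the enzyme fibrillarin to sites of 2′-O-methylation and box H/ACA snoRNAs (SNORA) guide dyskerin to sites of pseudouridylation, mostly in ribosomal RNA. The scaRNAs carry the same boxes, collect in Cajal bodies and guide the modification of spliceosomal RNAs. Most human snoRNAs are not transcribed on their own: they are cut out of introns of a host gene, often a ribosomal protein gene or a long noncoding RNA whose exons have no known protein product. U3 and a few others have promoters of their own. On chromosome 15, the paternally expressed transcript SNHG14 carries long tandem arrays of SNORD116 and SNORD115 copies, and deletion of the SNORD116 copies is known from Prader-Willi syndrome; on chromosome 14, the maternally expressed MEG8 region carries SNORD113 and SNORD114.

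Of the 309 members, 294 lay inside a longer RefSeq gene. Promoter sequences were found for 108 of the 134 containing genes, with 143 start sites. Many snoRNA host genes are known to begin with a C followed by a run of pyrimidines, the 5′ terminal oligopyrimidine start that links a transcript to ribosome production. A start site at C followed by at least 4 pyrimidines was present at 25 of the 143 host start sites (17.5%). Over the 27305 genes with promoter sequences it was present at 1429 of 35116 start sites (4.07%). Among ribosomal protein hosts it was present at 6 of 9 start sites, which cover 9 of the 17 such hosts. The windows below are those of the hosts whose snoRNAs are described in most detail. Each shows 50 bases before and 20 bases from the annotated start (RefSeq, GRCh38.p14, 5′ to 3′ on the strand of the gene), with the first 5 transcribed bases in capitals.
GAS5, chr1:173869026-173869095, minus strand: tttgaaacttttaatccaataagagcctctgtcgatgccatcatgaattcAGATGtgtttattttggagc
ZFAS1, chr20:49278592-49278661, plus strand: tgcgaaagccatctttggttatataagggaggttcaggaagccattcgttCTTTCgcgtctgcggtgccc
RPL4, chr15:66504836-66504905, minus strand: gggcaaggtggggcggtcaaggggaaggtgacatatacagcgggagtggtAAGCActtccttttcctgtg
IPO7, chr11:9384602-9384671, plus strand: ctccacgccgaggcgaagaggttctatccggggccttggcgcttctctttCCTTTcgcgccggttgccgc
KANSL2, chr12:48682219-48682288, minus strand: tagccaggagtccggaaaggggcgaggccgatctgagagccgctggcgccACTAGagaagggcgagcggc
SNHG14, chr15:24823558-24823627, plus strand: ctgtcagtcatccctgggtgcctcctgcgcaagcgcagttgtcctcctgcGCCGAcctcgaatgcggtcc
ZFAS1 (host of SNORD12, SNORD12B and SNORD12C) and IPO7 (host of SNORA23) began with such a run at the start listed by RefSeq. The other 4 did not at that base. Only the annotated first bases were read, so a run at a nearby start was not counted. In RPL4 a run of pyrimidines, cttccttttcct, directly follows the bases in capitals. The stem TCCCCTT, shared by the DDB2 sites discussed for other promoters, was searched on both strands of the 300 bases around each start. It occurred at 9 of the 143 host start sites (6.29%) and at 7.57% of all start sites, and among the 6 genes shown only in RPL4, where it reads aagggga in the printed window.

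Testing was limited to probe sets above a log2 value of 4.48 (the table's overall median) on 2 or more arrays. This held for 221 of the 309 members (71.5%) and for 50.6% of all transcript clusters: 132 SNORD, 69 SNORA, 19 SCARNA and the probe set with mixed symbols. Of the 88 untested members, 68 belonged to the 4 tandem families. None of the 9 SNORD113 and 31 SNORD114 members passed; their values lay between 1.53 and 3.85 and between 1.37 and 4.55, and MEG8 itself lay between 2.66 and 2.70 in the DDB2 clones and at 2.69 and 2.68 in the vector clones. Since several probe sets read the same sequence (19 of the 309 lie on alternative chromosome 6 contigs), members with identical values on all 5 arrays were also counted once, which left 193 tested members.

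None of the 221 tested members passed a fold change over 2 with an unadjusted P under 0.05 in limma, the thresholds used by the study, against 0.351% of all transcript clusters tested (0.164% higher, 0.187% lower). At an unadjusted P under 0.05 alone, 12 members were higher and 2 were lower in the DDB2 clones, or 7 and 2 with identical values counted once (background 3.21%, with 1.47% higher and 1.74% lower). The smallest limma adjusted p of a member was 0.999, and no transcript cluster of the array had an adjusted p under 0.05. With 3 clones against 2, a one-sided exact permutation test of a single RNA cannot go below p = 0.1, which is what it gives wherever the groups do not overlap. The median log2 fold change of the members was 0.11, beside -0.01 over all transcript clusters tested. The log2 fold change was above 0 in 147 of the 221 members (66.5%), against 47.2% of all transcript clusters. Without SNORD115 and SNORD116 the median was 0.05, and 108 of 182 members were above 0 (59.3%). Without vector 3, 106 of the 221 members were above 0. Their median was then -0.02, the same as over all transcript clusters, so the excess above 0 rested on that clone.

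The classes differed in how often the clones of the 2 groups stood apart. The 3 DDB2 clones lay above both vector clones in 20 of 69 SNORA members (29.0%), or 15 of 63 with identical values counted once. They lay below both in 1. The background was 18.0%, with 6.29% above and 11.8% below. Among the 132 SNORD members 5 lay above and 8 below (9.85% either way), or 4 and 7 of 110 with identical values counted once. Most of those below were probe sets of U3, which count as readings of the same RNA. Among the 19 SCARNA members none lay either way. The median log2 fold change was 0.16 for SNORA, 0.11 for SNORD and 0.01 for SCARNA. The SNORD median rested on the chromosome 15 arrays and was -0.02 over the 93 SNORD members outside SNORD115 and SNORD116. For comparison, the 912 tested probe sets of other small RNA classes had a median of 0.02. By symbol prefix these were microRNA (MIR), U RNA (RNU), Y RNA (RNY), 5S ribosomal RNA (RNA5S) and vault RNA (VTRNA). Pseudogenes were not set apart. The median was -0.03 for the 493 microRNA probe sets. It was 0.1 for 128 U RNA, 0.11 for 18 Y RNA, 0.06 for 269 5S and 0.28 for 4 vault RNA probe sets. A positive median was thus not limited to the snoRNAs.

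**Figure D1:**
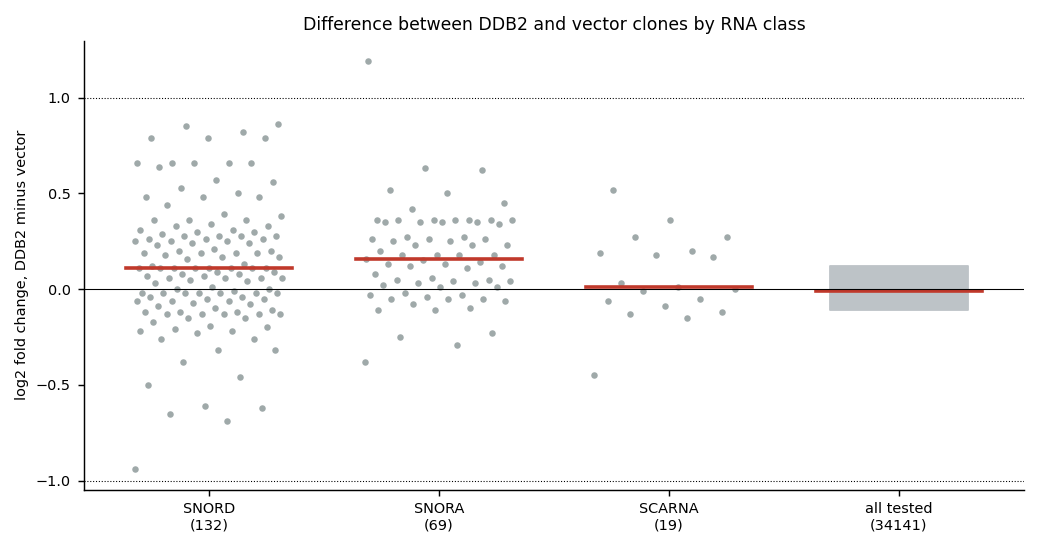
Log2 fold change (DDB2 minus vector clones) of each tested member by class, with the class median as a red line; the last column shows the median and the interquartile range of all 34141 transcript clusters tested. Dotted lines mark a 2-fold difference, which only SNORA2A (1.19) exceeded; the medians are 0.11 for SNORD, 0.16 for SNORA and 0.01 for SCARNA.

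A large share of the variation ran between clones of the same group. Vector 3 held the lowest of the 5 values in 106 of the 221 tested members, against 24.0% of all transcript clusters tested. DDB2 1, the clone with the high DCN and LUM values, held the highest in 102. With identical values counted once these were 90 and 82 of 193. Without DDB2 1, the median log2 fold change was 0.11 for SNORA, -0.03 for SNORD and 0.07 for SCARNA. The median deviation of the members from their own 5-clone mean was 0.23, 0.06 and -0.16 in DDB2 1, 2 and 3 and 0.05 and -0.20 in vector 1 and 3. The low position of vector 3 was not limited to snoRNAs, since it also held the lowest value in 168 of 269 probe sets with the RNA5S prefix (62.5%). Without vector 3, the median log2 fold change was -0.09 for SNORD and -0.03 for SCARNA, while that for SNORA was 0.09; the median over all transcript clusters was then -0.02. What sets vector 3 apart (the clone, its RNA or its array) cannot be told apart with a single array per clone.

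Among the H/ACA snoRNAs with separate groups was SNORA23, which lies in an intron of IPO7, a nuclear import receptor gene. On the log2 scale SNORA23 read 11.26, 11.51 and 11.43 in the DDB2 clones, against 11.00 and 10.76 in the vector clones. All 3 DDB2 clones exceeded both vector clones, and the log2 fold change was 0.52 (SE 0.132, limma adjusted p = 0.999). The host transcript did not show this difference: IPO7 had 9.75, 10.29 and 10.45 in the DDB2 clones, against 10.02 and 10.20 in the vector clones, a log2 fold change of 0.06.

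SNORA37, which lies within MBD2 on chromosome 18, had 7.35, 7.22 and 7.30 in the DDB2 clones, against 7.02 and 6.30 in the vector clones. The groups did not overlap (log2 fold change 0.63, SE 0.234, limma adjusted p = 0.999), but vector 3 lay 0.72 below vector 1, and the log2 fold change was 0.27 without vector 3. SNORA26, within the noncoding RNA DANCR, had 6.29, 6.49 and 5.63 in the DDB2 clones, against 5.49 and 5.54 in the vector clones. Here the vector clones were close together and DDB2 3 lay near them (log2 fold change 0.62, SE 0.282).

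SNORA77 had 5.45, 5.59 and 6.15 in the DDB2 clones, against 5.05 and 5.41 in the vector clones. SNORA20, in the chaperonin gene TCP1, had 8.60, 8.50 and 8.32, against 8.27 and 7.84. In both, the lowest DDB2 clone lay only just above the higher vector clone, and the log2 fold changes were 0.50 (SE 0.259) and 0.42 (SE 0.174). That of SNORA77 was 0.29 without DDB2 3 and 0.32 without vector 1, and that of SNORA20 was 0.20 without vector 3. SNORA38, within PRRC2A in the major histocompatibility region, was read by 7 probe sets with only 2 different sets of values. The first set was 5.88, 5.70 and 5.57 in the DDB2 clones, against 5.34 and 5.37 in the vector clones (log2 fold change 0.36, SE 0.124). The other was 5.58, 5.21 and 5.30, against 5.11 and 4.92 (0.35, SE 0.152), so that 7 of the 20 separate SNORA members were copies of the same RNA.

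The H/ACA RNA with the largest difference was SNORA2A, within KANSL2 on chromosome 12. SNORA2A had 7.77, 6.13 and 7.71 in the DDB2 clones, against 5.89 and 6.14 in the vector clones. DDB2 1 and 3 were more than 1 unit above both vector clones, but DDB2 2 lay between the vector clones, so the groups overlapped (log2 fold change 1.19, 95% interval from -0.29 to 2.67, limma adjusted p = 0.999). Its neighbour SNORA2B, in the same gene, had 4.79, 4.78 and 4.84 in the DDB2 clones, against 4.63 and 4.92 in the vector clones, a log2 fold change of 0.03. Without DDB2 2, SNORA2A passed both thresholds of the study, with a log2 fold change of 1.73.

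The single H/ACA RNA that was lower in all 3 DDB2 clones was SNORA35, which lies in an intron of HTR2C, a serotonin receptor gene. It had 4.5, 4.46 and 4.33 in the DDB2 clones, against 4.72 and 4.89 in the vector clones (log2 fold change -0.38, SE 0.111). SNORA35 lay close to the filter level of 4.48 and exceeded it on 3 arrays, with DDB2 2 and 3 below it, so it passed the filter through its vector values. HTR2C itself was below the filter level in every clone, at 2.29, 2.29 and 2.23 in the DDB2 clones and 2.21 and 2.24 in the vector clones. U17 (SNORA73B), which takes part in the maturation of 18S ribosomal RNA, had 11.32, 11.27 and 10.91 in the DDB2 clones, against 11.06 and 10.88 in the vector clones, with overlapping groups. The telomerase RNA TERC, which carries an H/ACA domain but is no snoRNA, had 7.89, 6.91 and 7.37, against 7.24 and 7.22 in the vector clones, and the groups overlapped.

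**Figure D2:**
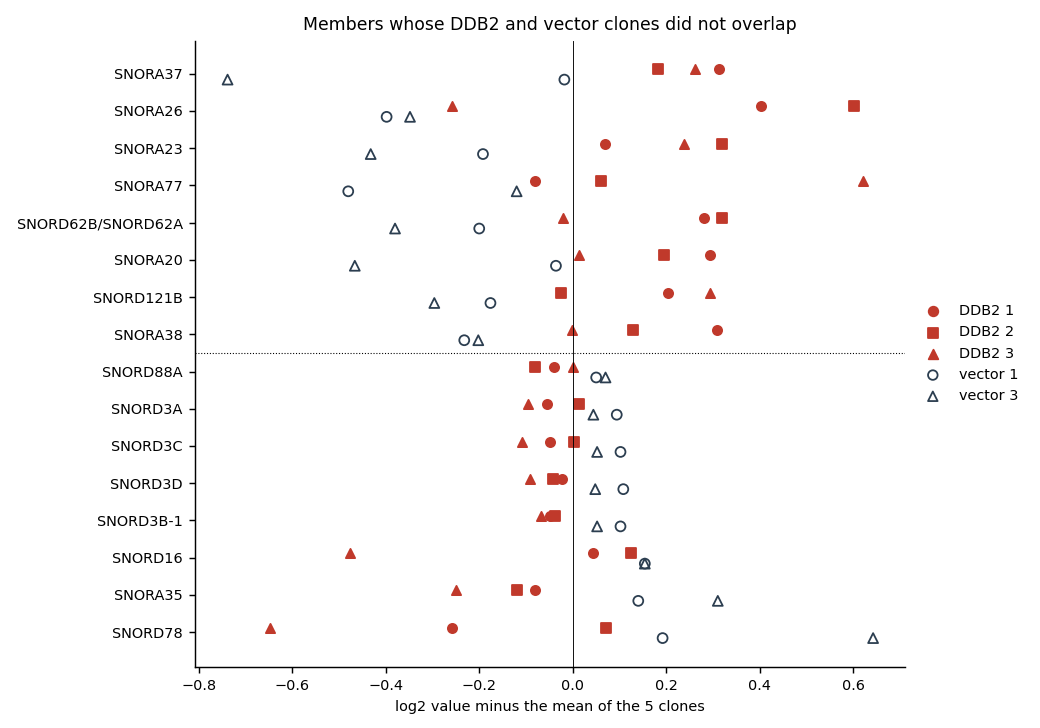
Log2 value of each clone minus the mean of the 5 clones, for the 8 largest differences in either direction among members whose groups did not overlap (filled red, DDB2 clones; open, vector clones; identical probe sets shown once). Above the dotted line all DDB2 clones are higher, below it all are lower; the 4 U3 genes and SNORD88A differ by only 0.10 to 0.13.

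Among the box C/D snoRNAs, U3 was lower in the DDB2 clones by a small and uniform amount. U3 is the box C/D RNA that pairs with the pre-ribosomal RNA for the first cleavages towards 18S rather than for methylation. SNORD3A had 12.15, 12.22 and 12.11 in the DDB2 clones, against 12.30 and 12.25 in the vector clones. SNORD3B-1, SNORD3C and SNORD3D also lay below both vector clones in every DDB2 clone. Their log2 fold changes were -0.13, and that of SNORD3A was -0.12 (SE 0.0889), with 95% intervals that all reach above 0. These genes have near-identical sequences, SNORD3B-1 and SNORD3B-2 gave identical values, and the 5 probe sets count as readings of the same RNA.

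The other C/D RNAs that act in 18S processing had overlapping groups. U13 (SNORD13) had 13.15, 12.78 and 12.82 in the DDB2 clones, against 13.03 and 12.63 in the vector clones. The U14 copies SNORD14A and SNORD14B, in the ribosomal protein gene RPS13, had log2 fold changes of -0.17 and -0.12. The U14 copies SNORD14D and SNORD14E, in the heat shock gene HSPA8, differed mainly by clone. SNORD14E had 6.01, 5.74 and 6.68 in the DDB2 clones, against 6.06 and 6.99 in the vector clones, and the HSPA8 transcript had 9.42, 10.29 and 11.43, against 9.73 and 11.91. In both, DDB2 3 and vector 3 were the highest of their groups. The HSPA8 probe set also carries the symbol of SNORD14D.

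GAS5 (growth arrest-specific 5), a noncoding host of many box C/D RNAs, had 2 member probe sets, and both were lowest in DDB2 3 and highest in vector 3. SNORD78 had 9.64, 9.97 and 9.25 in the DDB2 clones, against 10.09 and 10.54 in the vector clones. The groups did not overlap, and SNORD78 was the only SNORD lower at an unadjusted P under 0.05 (log2 fold change -0.69, SE 0.264, limma adjusted p = 0.999). SNORD75 had 6.73, 7.17 and 6.25, against 7.12 and 8.19, where DDB2 2 lay just above vector 1 (log2 fold change -0.94, SE 0.426, and -0.40 without vector 3). The GAS5 transcript, whose probe set also carries the symbols of 8 other snoRNAs, had 8.44, 8.71 and 7.91, against 8.63 and 9.05, the same order of clones within each group.

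ZFAS1, a noncoding host of the SNORD12 family, gave 3 members with unlike patterns. SNORD12C had 6.56, 7.0 and 6.54 in the DDB2 clones, against 6.67 and 8.04 in the vector clones. SNORD12 had 8.09, 8.25 and 8.28, against 8.18 and 8.86, and SNORD12B had 7.69, 7.82 and 7.33, against 7.62 and 7.60. The log2 fold changes of SNORD12C (-0.65) and SNORD12 (-0.32) rested on vector 3 and were 0.03 and 0.02 without it. In the ZFAS1 transcript vector 3 was not the high clone: it had 9.21, 9.07 and 8.42 in the DDB2 clones, against 9.53 and 8.82 in the vector clones.

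RPL4, the gene of a large-subunit ribosomal protein, hosts SNORD16, SNORD18A and SNORD18B. SNORD16 had 9.25, 9.33 and 8.73 in the DDB2 clones, against 9.36 and 9.36 in the vector clones. SNORD18A had 8.40, 8.45 and 7.70, against 8.33 and 9.04, and SNORD18B had 5.53, 5.74 and 4.77, against 5.26 and 6.68. All 3 were lowest in DDB2 3, and only SNORD16 had separate groups, with DDB2 2 close below the vector clones. Their log2 fold changes were -0.26, -0.50 and -0.62, and those of SNORD18A and SNORD18B were -0.15 and 0.09 without vector 3, while that of SNORD16 was -0.07 without DDB2 3. The RPL4 transcript had 11.42, 11.48 and 11.24 in the DDB2 clones, against 11.56 and 11.61 in the vector clones. The groups did not overlap (log2 fold change -0.21). The RPL4 probe set also carries the symbols of these 3 snoRNAs.

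RPL17, the gene of another large-subunit protein on chromosome 18, hosts members that went the other way. SNORD58A had 8.81, 8.93 and 8.59 in the DDB2 clones, against 8.63 and 7.92 in the vector clones. SNORD58C had 6.66, 6.89 and 5.96, against 6.16 and 5.74. Vector 3 was the lowest clone in both, and the groups overlapped through DDB2 3 (log2 fold changes 0.50 and 0.56, and 0.15 and 0.34 without vector 3). SNORD71, within AP1G1, had 9.83, 9.22 and 9.44, against 9.29 and 8.38, again with the gap between the vector clones (0.91) larger than the log2 fold change of 0.66, which was 0.20 without vector 3.

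**Figure D3:**
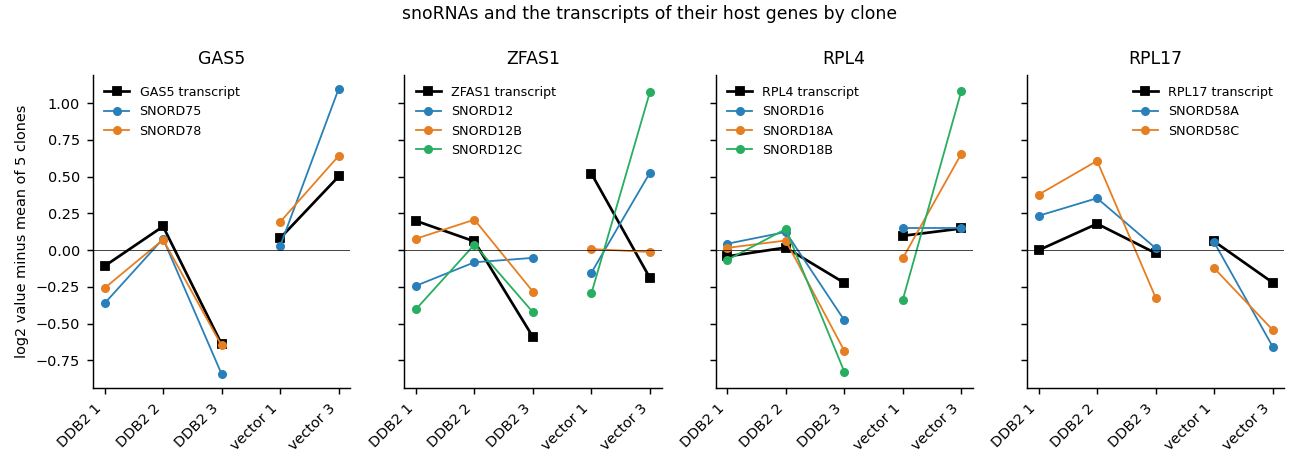
Log2 value of each clone minus the 5-clone mean for the snoRNAs of 4 host genes (coloured circles) and for the transcript of the host (black squares), DDB2 clones at the left of each panel and vector clones at the right. In the GAS5 panel SNORD75, SNORD78 and the host share the order of clones within each group; in the ZFAS1 panel vector 3 is highest for SNORD12C and below vector 1 for the host.

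Of the remaining C/D RNAs with separate groups, SNORD62A and SNORD62B (PRRC2B) were read by 2 probe sets with the same values. These had 4.96, 5.00 and 4.66 in the DDB2 clones, against 4.48 and 4.30 in the vector clones (log2 fold change 0.48, SE 0.148). SNORD121B (UBAP2) had 5.93, 5.70 and 6.02, against 5.55 and 5.43 (0.39, SE 0.133). Both lie on chromosome 9, and SNORD62 had values close to the filter level of 4.48. All DDB2 clones exceeded that level and the vector clones were at or below it to 2 decimals, so SNORD62 passed the filter through its DDB2 values. SNORD10, in the gene of the translation initiation factor EIF4A1, had 9.05, 9.03 and 9.30, against 8.88 and 8.97, and SNORA48 of the same gene had 10.87, 10.88 and 10.83, against 10.72 and 10.46. Both had separate groups, while the EIF4A1 transcript overlapped, with 9.0, 9.14 and 8.99, against 8.61 and 9.33. The EIF4A1 probe set also carries the symbols of both snoRNAs. SNORD88A had 7.16, 7.12 and 7.20, against 7.25 and 7.27, a log2 fold change of -0.10.

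The largest differences between single clones were in SNORD115, a brain-enriched family whose best known target is the serotonin receptor mRNA of HTR2C. Of the 42 SNORD115 members, 18 were tested (13 with identical values counted once). The probe sets shared by SNORD115-11, SNORD115-29, SNORD115-36 and SNORD115-43 had 6.62, 6.49 and 5.47 in the DDB2 clones, against 7.03 and 4.03 in the vector clones. In all 18, vector 1 was the highest clone and vector 3 the lowest, with a median gap of 2.69 log2 units between the 2 vector clones, or 6.46-fold. DDB2 3 lay a median of 0.97 below the mean of DDB2 1 and 2. The DDB2 clones thus fell between the vector clones in every tested SNORD115 member.

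The log2 fold changes of these 18 probe sets ran between 0.28 (SNORD115-44) and 0.86 (SNORD115-42), median 0.66, and their sign depended on which vector clone was kept. SNORD115-42 had 6.43, 6.28 and 5.61 in the DDB2 clones, against 6.50 and 3.99 in the vector clones. Without vector 3 the median was -0.72, and without vector 1 it was 2.12. Leaving out vector 1 also gave 22 members past the thresholds of the study, 17 of them SNORD115, where 1.45% of all transcript clusters passed; leaving out vector 3 gave none. Among all 42 members, tested or not, 41 were lower in vector 3 than in vector 1.

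SNORD116, the neighbouring family, had vector 3 and DDB2 3 at the low end, as SNORD115 did, but DDB2 1 and not vector 1 at the top, with a smaller range. Of its 25 members, 21 were tested; DDB2 1 held the highest value in 18 of them and vector 3 the lowest in 15. Their median values were 7.98, 7.92 and 7.37 in the DDB2 clones, against 7.85 and 7.21 in the vector clones. SNORD116-1 had the largest difference, with 5.64, 5.44 and 4.96 in the DDB2 clones and 5.07 and 4.86 in the vector clones (log2 fold change 0.38, SE 0.231). SNORD116-20 and SNORD116-21, which share a probe set, had 9.76, 9.76 and 9.58, against 9.72 and 9.50 (0.09). The median log2 fold change was 0.25, and 0.02 without vector 3.

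The long transcripts across the same locus differed less between the vector clones than SNORD115 did. SNHG14 was read by 4 probe sets, of which the one with the highest values had 6.04, 5.70 and 5.95 in the DDB2 clones, against 5.78 and 5.85 in the vector clones. In the other 3, vector 3 lay below vector 1, with 4.93, 5.07 and 4.97 in vector 3 and 5.05, 5.24 and 5.10 in vector 1. PWAR1, another noncoding RNA of the locus, had 5.54, 5.42 and 5.29 in the DDB2 clones, against 5.73 and 4.92 in the vector clones, which is the order of clones seen in SNORD115. IPW, a noncoding RNA between the tandem arrays, had 7.31, 6.74 and 7.21, against 6.72 and 7.12. SNRPN, at the start of the locus, had 7.06, 6.78 and 6.66, against 6.97 and 6.60, and UBE3A, which SNHG14 overlaps in antisense, had 9.08, 8.93 and 8.65, against 8.96 and 9.16. In IPW and UBE3A vector 3 was above vector 1, and in SNRPN it was below. A probe set of PWARSN had 6.96, 6.72 and 6.69 in the DDB2 clones, against 7.04 and 7.16 in the vector clones. PWAR5 had 8.18, 7.84 and 8.12, against 8.28 and 8.34. Both had separate groups, lower in the DDB2 clones, while the groups overlapped in PWAR1, IPW, SNRPN and UBE3A. The probe sets of SNHG14, IPW, SNRPN, PWARSN and PWAR5 also carry snoRNA symbols, while those of PWAR1 and UBE3A do not. The array does not separate a free snoRNA from the intron that carries it.

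**Figure D4:**
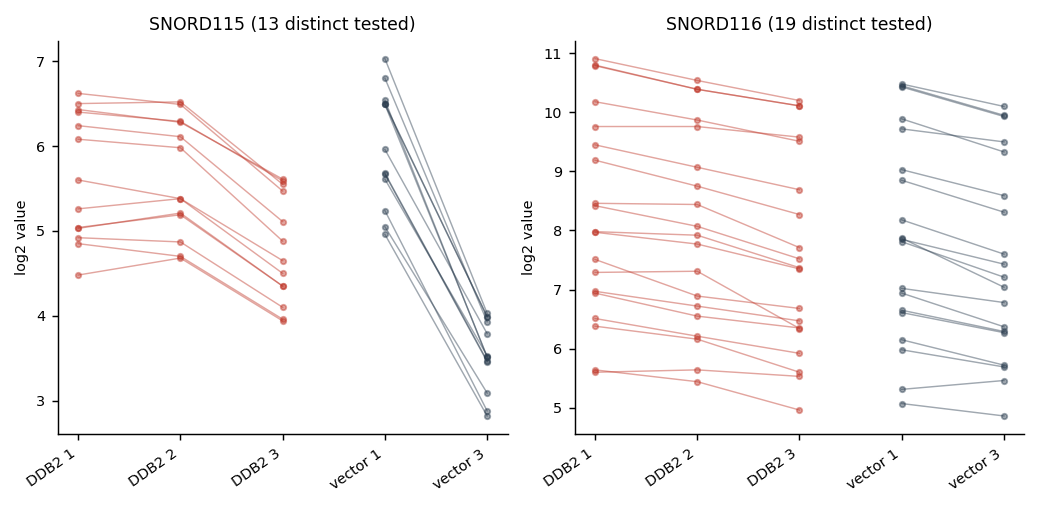
Log2 value by clone of each tested SNORD115 (left) and SNORD116 (right) member, identical probe sets drawn once; red, DDB2 clones, and dark blue, vector clones. In SNORD115 vector 3 lies 1.96 to 3.03 below vector 1 with all DDB2 clones between them; in SNORD116 vector 3 is lowest in 15 of 21 and DDB2 1 highest in 18 of 21, with a smaller range.

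The scaRNAs had no member with separate groups. SCARNA17, a guide within the noncoding gene SNHG22 on chromosome 18, had the highest log2 fold change, 0.52 (0.08 without vector 3), with 8.81, 8.67 and 8.27 in the DDB2 clones, against 8.50 and 7.63 in the vector clones. SCARNA22, in an intron of NSD2, had 6.80, 7.29 and 8.01, against 7.14 and 6.86, with a log2 fold change of 0.36 that was 0.04 without DDB2 3. SCARNA9L, on the X chromosome, had the lowest log2 fold change, -0.45, with 8.82, 7.98 and 8.17, against 8.70 and 8.84. Another probe set, shared by SCARNA9 and SCARNA9L, had 8.90, 8.51 and 8.27, against 8.94 and 8.30 (log2 fold change -0.06). In each, at least 1 DDB2 clone lay within the range of the vector clones or on the other side of it. SCARNA2, transcribed from its own promoter, had 7.24, 6.87 and 6.96, against 7.04 and 7.19, and SCARNA12 in PHB2 had 10.04, 9.56 and 10.01, against 9.90 and 10.09.

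SCARNA3 shares 83 bases with a microRNA gene, MIR1843, and is shown because its probes may read both RNAs. The hairpin (RefSeq, GRCh38.p14, chr1:175968370-175968479, minus strand) has 110 bases, with the mature microRNA in capitals.
MIR1843: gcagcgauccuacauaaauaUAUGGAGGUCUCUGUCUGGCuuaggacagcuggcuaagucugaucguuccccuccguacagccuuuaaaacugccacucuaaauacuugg
SCARNA3 had 6.07, 5.65 and 6.67 in the DDB2 clones, against 6.31 and 6.26 in the vector clones. DDB2 2 was the lowest and DDB2 3 the highest of the 5 clones, so the DDB2 clones lay on both sides of the vector clones.

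The proteins that act with these RNAs gave no call by the thresholds of the study and none at an unadjusted P under 0.05 in limma. Of the 4 box C/D core proteins, fibrillarin (FBL), the methyltransferase, had 8.61, 8.33 and 8.84 in the DDB2 clones, against 8.84 and 9.23 in the vector clones. DDB2 3 and vector 1 were equal to 2 decimals, and the log2 fold change was -0.44 (SE 0.206). NOP56, whose probe set includes the snoRNAs of its own introns, had 7.88, 8.13 and 7.82, against 7.46 and 8.16. Dyskerin (DKC1), the pseudouridine synthase, had 8.06, 8.04 and 7.57, against 7.81 and 8.23, and the 4 box H/ACA core proteins had a median log2 fold change of -0.02. The medians were -0.13 for the 4 box C/D core proteins, -0.13 for 6 proteins of the U3 particle, -0.13 for 10 assembly factors, -0.05 for 8 Cajal body and transport proteins and 0.08 for 7 proteins of intron debranching and end trimming. Among the assembly factors, SHQ1, a chaperone of dyskerin, had 5.96, 6.26 and 6.44, against 6.34 and 6.82, with overlapping groups. The exonuclease XRN2, which trims RNA ends, had 8.52, 8.69 and 8.69, against 8.71 and 9.21, with a log2 fold change of -0.33 that was -0.08 without vector 3.

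Of 22 long noncoding host genes listed, 21 were tested, with a median log2 fold change of -0.16. It was above 0 in 6 of them (28.6%, against 47.2% of all transcript clusters), and 2 had separate groups, both lower (9.52%, against 18.0% of all and 11.8% lower). SNHG5 was the only host past an unadjusted P of 0.05, with 7.62, 7.56 and 7.18 in the DDB2 clones, against 7.91 and 7.90 in the vector clones (log2 fold change -0.45, SE 0.161, limma adjusted p = 0.999). SNHG1 had 8.53, 8.65 and 8.16, against 8.53 and 9.40, and SNHG12 had 7.39, 7.09 and 7.18, against 7.25 and 8.02, with log2 fold changes of -0.08 and -0.03 without vector 3. Over all 79 tested probe sets that carry a host symbol together with snoRNA symbols, the groups were separate in 13 (16.5%, near the 18.0% of all transcript clusters). These 13 were lower in the DDB2 clones, against a background of 11.8% lower, and the median log2 fold change of the 79 was -0.08. In these host transcripts DDB2 3 was the lowest clone in 44 (55.7%) and vector 3 in 5 (6.33%), against 21.5% and 24.0% of all transcript clusters. Some hosts count more than once: the probe sets of DDX39B and of SNHG32 had near-identical values, all lowest in DDB2 3. Among the 221 snoRNA and scaRNA members vector 3 was the lowest in 106 and DDB2 3 in 60. With identical values counted once these were 90 and 52 of 193, and without SNORD115 and SNORD116 they were 73 and 55 of 182. A count with each host taken once was not made.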

How the data were processed

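RNA of 5 clones was hybridised to the Human Transcriptome Array 2.0. Background correction, normalization and RMA summary were done by the authors in the Affymetrix console; its version and the genome build are not given in the sources used here. The deposited values were read as log2 values from their range and were used without further scaling. Of 70523 entries, 2995 control entries were left out. Probe sets were named by GEO's platform annotation, and gene spans, start sites and sequences were taken from RefSeq (GRCh38.p14). A host is the shortest RefSeq gene span that contains the small RNA; strand was not given in the table and was not used.

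DDB2 was compared with vector in limma 3.58.1 (R 4.3.3) over 34141 transcript clusters above 4.48 on at least 2 arrays, with Benjamini-Hochberg adjustment over all of them. Fits were tested on simulated data. Intervals are 95%. Summaries used Python 3.11.15. The number of arrays limits the precision. Named were the largest separate differences in each direction, U3, U13, U14, U17, TERC, the ends of the tandem families, and protein and host genes from lists; SNORA2A, SNORA2B, SNORA48, SNORD75, SNORD71, the SNORD12, SNORD18 and SNORD58 RNAs and SNORD10 were added after their values were seen, and of the SCARNA 6 are named. The members and lists were chosen with earlier results of these data known. Alternatives covered filters, normalization, variance models, member rules, thresholds, a replicate block and leaving out each array.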

Additional observations from a re-analysis of the deposited data

How the results depend on the processing

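No member passed the thresholds of the study under either other filter level (3.02 and 6.11), without a filter, with quantile normalization, with array centring, with other variance models, with adjusted p, or under the other member rules. With a fold change over 1.5, 2 members passed (SNORA37 higher, SNORD78 lower). Leaving out each array in turn gave 0 to 22 members; 1 array left in a group is assumed to vary like the other group. The members with an unadjusted P under 0.05 then numbered 0 (without vector 3) to 41 (without vector 1), against 14. The labels do not say whether same-numbered clones were handled together. The deviations of same-numbered clones correlated at 0.13 and 0.342 by title and at 0.13 and -0.255 by source name. With 2 vector clones, whose deviations mirror each other, these correlations cannot decide whether the clones were paired. With a replicate block by title number, 1 member passed (SNORA2A, log2 fold change 1.73), and 139 of all transcript clusters passed, against 120. By source name number no member and 207 did, with 24 members at an unadjusted P under 0.05. DDB2 2 has no same-numbered vector clone by title, nor has DDB2 3 by source name. Each block therefore gives the log2 fold changes found without that clone and is no separate check of them. Taking probe sets with any snoRNA symbol gave a SNORA median of 0.05.

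Leaving out an array moved medians to between -0.03 and 0.26 for SCARNA, -0.72 and 2.12 for SNORD115, -0.65 and 0.02 for ZFAS1, -0.37 and 0.06 for box C/D proteins, -0.33 and 0.01 for assembly factors, -0.29 and 0.11 for Cajal body proteins, and -0.09 and 0.11 for debranching and trimming; the cause was not tested. The sign turned for 16 of 56 named genes: SNORA2B (-0.12 to 0.18), SNORD115-42 (-0.40 to 2.12), SNORD115-44 (-0.80 to 1.36), SNORD116-20 (-0.02 to 0.20), SNORD12 (-0.65 to 0.02), SNORD12C (-1.34 to 0.03), SNORD18B (-1.33 to 0.09), SNORD13 (-0.11 to 0.29), SNORD14D (-0.53 to 0.11), SNORD14E (-0.85 to 0.08), SNORD12B (-0.10 to 0.15), SCARNA12 (-0.22 to 0.03), SCARNA3 (-0.42 to 0.09), NOP56 (-0.22 to 0.48), DKC1 (-0.34 to 0.08) and TERC (-0.09 to 0.40). Of these, SNORD12B also turned with quantile normalization (-0.03). The turns with the block by title (SNORD12B -0.10, SCARNA12 0.03 and SCARNA3 0.09) repeat those without DDB2 2. That of DKC1 with the block by source name (0.03) repeats the turn without DDB2 3.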
